A study of Saccharomyces cerevisiae with 48 samples.

Results

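The genes described here make, modify, activate and carry fatty acids in budding yeast. They are ACC1, FAS1, FAS2, OLE1, ELO1, FAA1, FAA4 and ACB1, taken by symbol from the platform annotation, and they are 8 of the 5449 genes with a budding yeast probe set. Each has 1 probe set, and all 8 were among the 5372 probe sets bright enough to be tested. Their locus tags are, in that order, YNR016C, YKL182W, YPL231W, YGL055W, YJL196C, YOR317W, YMR246W and YGR037C.

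Transcripts were measured on 48 Affymetrix Yeast 2.0 arrays, 1 for each time point, from the strain IFO0233 of Saccharomyces cerevisiae, kept as a continuous culture whose respiration cycles. The control group is 11 arrays taken every 4 min from 13.8 to 14.5 h after inoculation. The phenelzine group is 37 arrays taken every 4 min from 14.6 to 17.0 h, after phenelzine, a monoamine oxidase inhibitor, was added to the culture to look for a doubled period. Its dose is not in the labels, and they give no genetic change in either group. No untreated culture was followed beside the treated one, so the drug and elapsed time cannot be told apart. Neighbouring time points stand in for replicates, and they are not independent cultures.

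In yeast, fatty acids are built in the cytosol from acetyl-CoA. Acetyl-CoA carboxylase, Acc1, makes malonyl-CoA, and the synthase complex of Fas1 and Fas2 strings malonyl units into saturated chains bound to CoA. Ole1 puts the double bond into these chains, Elo1 lengthens medium chains, Faa1 and Faa4 attach CoA to free fatty acids from inside or outside the cell, and Acb1 binds and carries acyl-CoA. ACC1, FAS1 and FAS2 are textbook targets of the inositol-sensitive activators Ino2 and Ino4, and OLE1 of the membrane-bound activators Mga2 and Spt23.

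Times below are minutes from the first phenelzine sample. To compare cycles, 4 windows of 11 arrays were laid at matched positions: a control window from -44 to -4 min, window 1 from 0 to 40 min, window 2 from 48 to 88 min and window 3 from 100 to 140 min. The lags of 44, 48 and 52 min between them are cycle lengths seen earlier in these data, and 4 arrays between windows were left out of the window fits. Values are log2 of the deposited signal intensity after quantile normalization, unless called "as deposited". A call means an adjusted p under 0.05 in limma with Benjamini-Hochberg adjustment over all 5372 probe sets. Before normalization, array medians over the tested probe sets lay between 9.50 and 10.52 on the log2 scale (SD 0.23, n = 48). The labels skip array number 91, and the 16 arrays after the gap, from 84 min on, include all of window 3, so that window and anything the gap marks cannot be told apart.

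The 8 genes fell into those whose peak time held under every scaling of the arrays, ELO1, FAA1 and FAA4, and those whose peak time or call changed with the scaling. The swing is the highest minus the lowest position mean over the 4 windows. After quantile normalization it was 0.53 to 0.57 on the log2 scale for ELO1, FAA1 and FAA4, 0.13 to 0.30 for ACC1, FAS1, FAS2, OLE1 and ACB1, and 0.53 as the median of all tested probe sets. This order of sizes did not hold under median centring. There ACC1, FAS1, FAS2, OLE1 and ACB1 swung by 0.52 to 0.89, against 0.54 for ELO1, 0.38 for FAA1 and 0.99 for FAA4. As deposited the first 5 swung by 0.22 to 0.54 and the other 3 by 0.70 to 0.89. The same pattern over the 11 positions recurred across windows for 8 of 8 genes after quantile normalization, as it did for 86.3% of all tested probe sets.

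The genes whose cycle changed with the scaling have bright probe sets. Signals of different probe sets are not transcript levels that can be set against each other, but they show where on the scanner's range each was read. Only 5 tested probe sets were brighter than that of ACC1, 64 were brighter than FAS1 and 70 than FAS2. For OLE1 there were 233 and for ACB1 279, against 405 for FAA4, 620 for FAA1 and 1025 for ELO1. The brightest 5% of tested probe sets (269) had a median swing of 0.21 after quantile normalization, 0.85 with median centring and 0.51 as deposited, against 0.53, 0.61 and 0.76 over all tested. Which scaling is nearest to the culture was not tested.

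**Figure D1:**
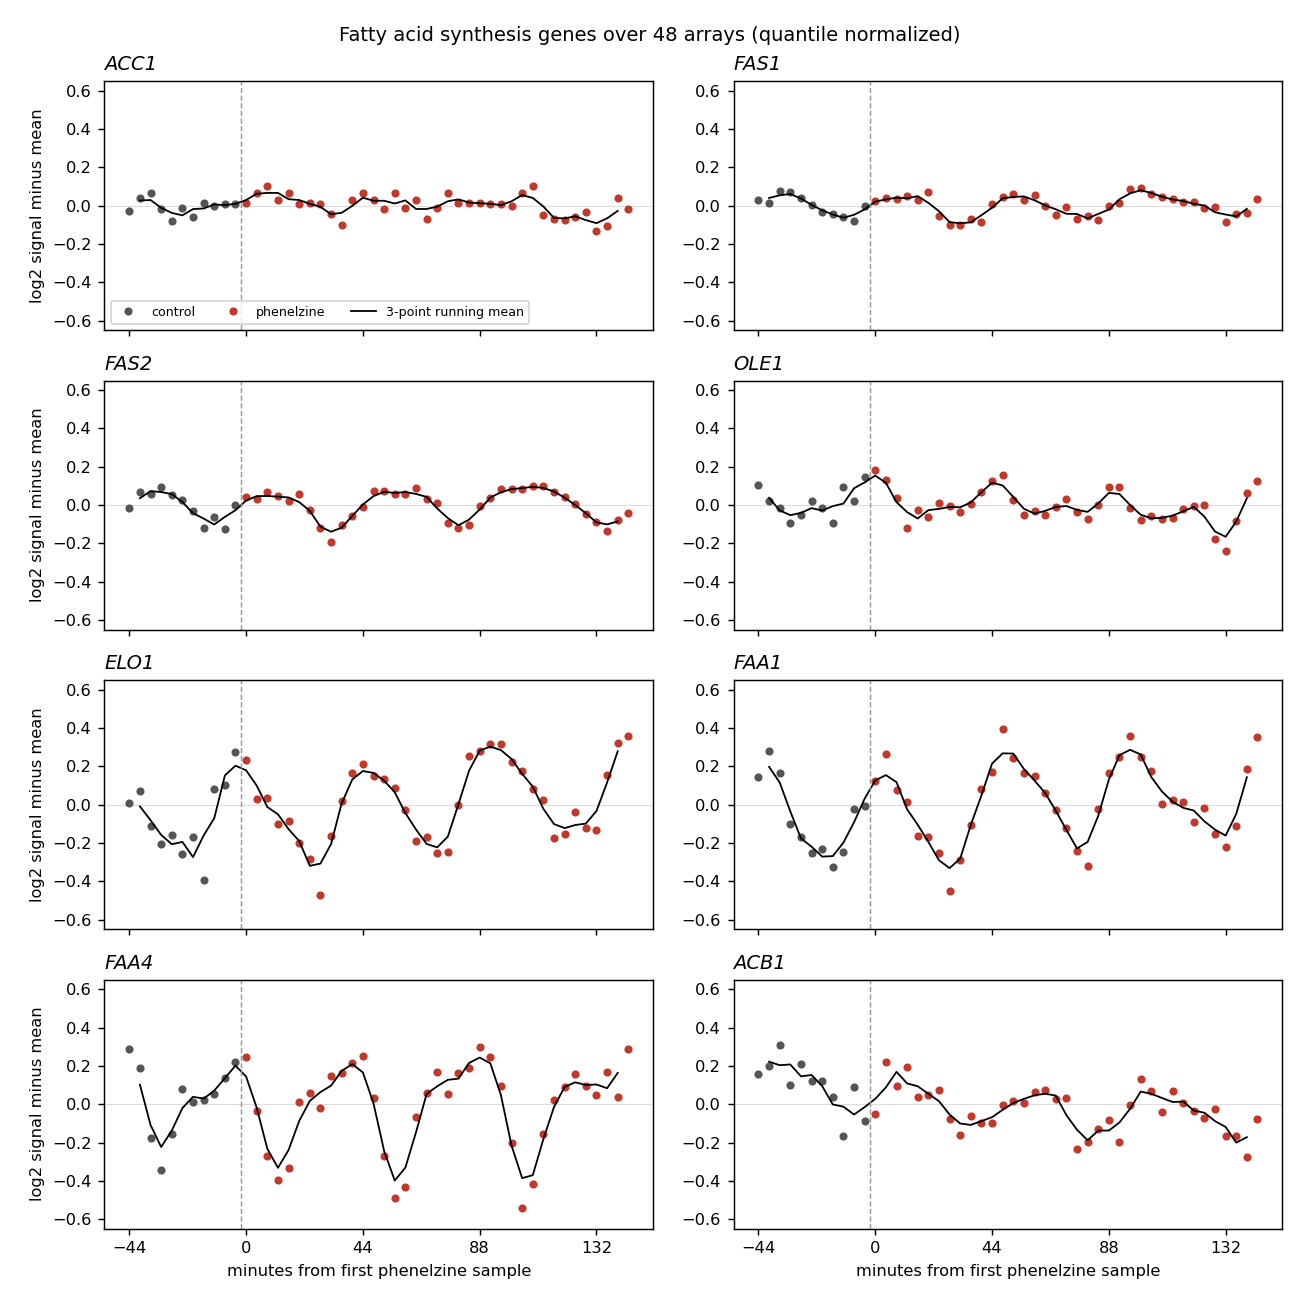
Log2 signal of each of the 8 genes minus its mean over 48 arrays (vertical axis, quantile normalized) against minutes from the first phenelzine sample (horizontal axis). Grey points are the 11 control arrays, red points the 37 phenelzine arrays and the black line is the 3-point running mean. The dashed line lies between the last control and the first phenelzine sample. After this normalization ELO1, FAA1 and FAA4 swing most, while ACC1, FAS1 and FAS2 stay close to their means, an order that median centring does not keep.

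ACC1, which catalyses the committed step, moved little after quantile normalization and more under the other scalings. Its deposited intensity ran from 9078 to 23766. Its normalized value ran from 13.73 to 13.97 over the 48 arrays, a 1.18-fold range, and its mean was 13.86 ± 0.04 (SD, n = 11) in the control window, 13.88 ± 0.05 in window 1, 13.88 ± 0.04 in window 2 and 13.84 ± 0.07 in window 3 (n = 11 each). The 4 windows overlapped almost wholly. The recurring swing was 0.13 (adjusted p = 0.0045, limma). It was 0.89 with median centring and 0.54 as deposited, where it was not called (adjusted p = 0.10 and 0.12). A 44-min rhythm was not called in the control arrays, where the amplitude was 0.028 (SE 0.017, adjusted p = 0.32), but was called with median centring, at an amplitude of 0.33 (adjusted p = 0.022). Peaks of its running mean came at 8, 44, 60 and 80 min and then 24 min later, at no regular interval.

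FAS1 and FAS2, the beta and alpha subunits of the synthase, moved together. FAS1 ran from 13.47 to 13.67 over the 48 arrays and FAS2 from 13.37 to 13.67. Within the windows FAS1 stood 0.055 ± 0.020 (SD, n = 4 windows) above its window mean 12 min after the start and 0.072 ± 0.021 below it after 32 min. FAS2 stood 0.077 ± 0.023 above its mean at 12 min and 0.115 ± 0.027 below it at 36 min. Both were above the mean in 4 of 4 windows at the first position and in 0 of 4 at the second. After phenelzine the fitted 48-min rhythm had an amplitude of 0.064 (SE 0.009, adjusted p = 1.4e-07) for FAS1 and 0.093 (SE 0.011, adjusted p = 6.1e-09) for FAS2. Running-mean peaks came at -32, 16, 56 and 100 min for FAS1. Over the 48 arrays the 2 genes correlated at r = 0.86, and at 0.98 as deposited. As a description, all values in an array share its RNA, labelling and scaling.

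The timing of ACC1, FAS1, FAS2 and ACB1 depended on how arrays were scaled. With quantile normalization their fitted peaks after phenelzine lay between 7.3 and 12.3 min of a 48-min cycle that starts at the first phenelzine sample. With each array centred on its median, the peaks moved to between 27.7 and 30.3 min, where FAS1 alone was called. As deposited none of the 4 rhythms was called, and no peak time is read from them. The recurring pattern of these 4 genes was not called under either of those scalings. ACC1 correlated with FAS1 at r = 0.27 after quantile normalization and at 0.97 as deposited. These 4 genes thus had no peak time that held across the scalings.

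OLE1, the desaturase, stood high at the turn from one window to the next. Its recurring swing was 0.17 (adjusted p = 0.0014), and it was called under all 3 scalings. At 40 min it lay 0.10 ± 0.04 (SD, n = 4 windows) above its window mean, in 4 of 4 windows. It had 2 lows, 0.070 ± 0.061 below the mean at 12 min and 0.070 ± 0.043 below it at 28 min. Between them, at 24 min, it lay 0.015 ± 0.042 above the mean. Running-mean peaks came at 0, 44, 88 and 120 min. The fitted 48-min peak was at 46.9 min (SE 2.5) with quantile normalization, 32.7 min with median centring and 38.8 min as deposited. The rhythm was called each time, so its presence held and its fitted phase did not. The window position with the highest mean moved less, at 40, 36 and 40 min in the same order.

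ELO1, the medium-chain elongase, had the widest swing of the 8 genes after quantile normalization and as deposited, but not with median centring, where 5 of the other genes swung wider. In the control window its lowest, median and highest values were 11.27, 11.56 and 11.94. The same values were 11.19, 11.58 and 11.90 in window 1, then 11.41, 11.67 and 11.94 in window 2. In window 3 they were 11.49, 11.69 and 11.99. The lowest value of each later window lay above that of the window before it from window 1 on, while the windows overlapped throughout. ELO1 was 0.29 ± 0.04 (SD, n = 4 windows) above its window mean at 40 min, in 4 of 4 windows, and 0.28 ± 0.10 below it at 28 min. The 48-min amplitude after phenelzine was 0.25 (SE 0.02, adjusted p = 4.9e-11). In the control arrays the 44-min amplitude was 0.21 (SE 0.05, adjusted p = 0.0061). Running-mean troughs came at -20, 24, 72 and 120 min, 44, 48 and 48 min apart. The fitted peak after phenelzine stayed between 46.3 and 0.3 min of the next cycle under the 3 scalings.

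FAA1, the main acyl-CoA synthetase for imported fatty acids, peaked just after ELO1. Its lowest, median and highest values were 11.97, 12.19 and 12.58 in the control window. They were 11.85, 12.19 and 12.56 in window 1 and 11.98, 12.36 and 12.69 in window 2. In window 3 they were 12.08, 12.30 and 12.55, the narrowest range of the 4. FAA1 was 0.27 ± 0.09 (SD, n = 4 windows) above its window mean at 4 min, in 4 of 4 windows, and 0.27 ± 0.09 below it at 28 min. Its amplitude was 0.26 (SE 0.03, adjusted p = 7.6e-05) before and 0.25 (SE 0.02, adjusted p = 8.2e-11) after phenelzine. Peaks of the running mean came at 4, 48 and 96 min, and the fitted peak lay between 0.4 and 3.0 min under the 3 scalings. ELO1 and FAA1 correlated at r = 0.74 over the 48 arrays, and at 0.92 as deposited.

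FAA4, the second synthetase for long chains, cycled at another time than FAA1. Its lowest, median and highest values were 12.46, 12.86 and 13.09 in the control window. They were 12.41, 12.81 and 13.05 in window 1 and 12.31, 12.86 and 13.10 in window 2. In window 3 they were 12.26, 12.84 and 12.97. After quantile normalization the median barely differed between windows while the lowest value was lower in each later one. The lowest deposited intensity was 5487, 4533, 4898 and 5163 in the same order, so it rose from window 1 on. FAA4 lay 0.32 ± 0.11 (SD, n = 4 windows) below its window mean at 8 min, in 4 of 4 windows, the position that follows the FAA1 maximum, and 0.21 ± 0.09 above it at 40 min. Its 48-min amplitude was 0.26 (SE 0.03, adjusted p = 3.0e-08), with the peak between 34.2 and 36.9 min under the 3 scalings. Over the 48 arrays FAA1 and FAA4 correlated at r = -0.06, and at 0.21 as deposited.

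**Figure D2:**
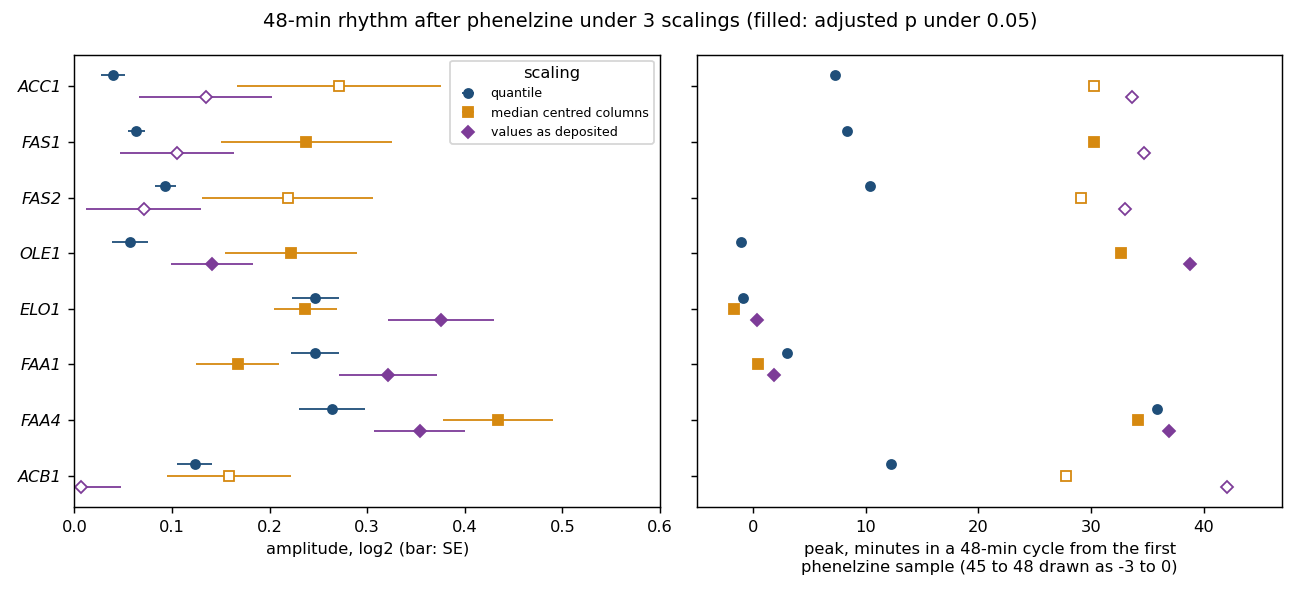
Amplitude on the log2 scale with its SE (left) and peak time in minutes of a 48-min cycle from the first phenelzine sample (right) for the 8 genes over the 37 phenelzine arrays, under quantile normalization (circles), median centring (squares) and the values as deposited (diamonds). Filled symbols are called at an adjusted p under 0.05. The 3 symbols lie close together in time for ELO1, FAA1 and FAA4 and farther apart for ACC1, FAS1, FAS2, OLE1 and ACB1.

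ACB1, the acyl-CoA carrier, swung by 0.30 over the positions (adjusted p = 1.4e-06), a call lost under both other scalings. Its lowest, median and highest values were 12.92, 13.21 and 13.39 in the control window and 12.93, 13.12 and 13.30 in window 1. They were 12.85, 13.09 and 13.16 in window 2 and 12.81, 13.05 and 13.22 in window 3. The windows overlapped, and after quantile normalization the median was lower in each later one. The median deposited intensity was 9439, 8060, 8470 and 9325 in the same order, so it rose from window 1 on.

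A 44-min rhythm in the control arrays was called for 7 of the 8 genes, all but ACC1, and for 69.4% of all tested probe sets. A 48-min rhythm after phenelzine was called for 8 of 8 and for 87.8%. After quantile normalization the median amplitude of the 8 genes was 0.11 in both, against 0.21 and 0.23 over all tested probe sets. Amplitudes depended on the scaling. With median centring those of the 8 ran from 0.15 to 0.34 in the control arrays, where the median of all tested was 0.23. After phenelzine they ran from 0.16 to 0.43, where it was 0.25. The control arrays span 40 min, so that 1 rise and 1 fall would look the same there as a rhythm. With median centring 4 of the 8 genes kept the recurring call and 5 the 48-min call, against 82.7% and 85.6% of all tested probe sets. As deposited 4 and 4 did, against 77.9% and 79.6%. The 44-min rhythm in the control arrays was called for 7 of the 8 with median centring, against 68.8%. As deposited it was called for 3, against 54.2%.

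The trough intervals of FAA4 were 44, 44 and 48 min, while the windows follow each other by 44, 48 and 52 min. A test of whether amplitude or phase differed between windows called FAA4 (adjusted p = 0.027) and none of the other 7 genes, against 16% of all tested probe sets. Its fitted peak came 40.3 min after the start of the control window, and 37.9, 33.4 and 28.4 min after the start of windows 1, 2 and 3. The amplitude was 0.19, 0.25, 0.29 and 0.28 in the same order. The call was lost with median centring (adjusted p = 0.30), as deposited (adjusted p = 0.093) and among arrays before the gap in array numbers (adjusted p = 0.18). It was also lost without the array at -44 min, at -40 min or in the second place of window 3 (highest adjusted p = 0.056). With windows spaced by 44 min throughout, a setting added after the data were seen, FAA4 was not called (adjusted p = 0.19). FAS2 (0.0033), ELO1 (0.00032) and FAA1 (0.00037) were called there. In that setting 68.9% of all tested probe sets were called, so these calls show nothing particular to the 3 genes.

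After quantile normalization mean levels of the 8 genes between cycles differed little, and 2 of the 32 differences tested passed the threshold. The 4 comparisons called 5.96%, 15.6%, 12.4% and 16% of all tested probe sets. With median centring they called 0, 2, 0 and 0 of the 8 genes, against 2.92%, 13.2%, 7.78% and 10.4%. As deposited they called 1, 0, 5 and 0, against 4.43%, 1.04%, 37.2% and 1.92%. Window 1 against the control window called 0 of 8, against 5.96% of all tested probe sets by limma (2.87% higher, 3.09% lower). An unadjusted p under 0.05 was found for 1 of the 8, ACB1, and for 1267 of all 5372 tested probe sets. The 95% intervals of these differences lay within -0.17 and 0.071 on the log2 scale. For the synthase they were narrow after quantile normalization, -0.045 to 0.012 for FAS1 and -0.046 to 0.013 for FAS2. The mean deposited intensity of FAS1 was 12568 ± 1550 (SD, n = 11) in the control window and 11061 ± 1551 in window 1. For FAS2 it was 12441 ± 1613 and 10869 ± 1345. As deposited, the median of all tested probe sets was itself shifted by -0.13 in this comparison.

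FAA1 rose in window 2 over window 1. Its mean was 12.34 against 12.22, a difference of 0.12 (95% interval 0.051 to 0.19, SE 0.03, adjusted p = 0.016), and it was higher at 9 of 11 positions. It was 1 of 8 genes called, against 15.6% of all tested probe sets, 8.12% higher and 7.46% lower. ELO1 was higher at 9 of 11 positions too, by 0.077 (SE 0.04), and did not pass (adjusted p = 0.14). The FAA1 call was lost as deposited (0.21, adjusted p = 0.12), without the position block (adjusted p = 0.79) and with windows spaced by 44 or 48 min throughout (adjusted p = 0.17 and 0.14). It held with median centring (0.21, adjusted p = 0.030) and among arrays before the gap in array numbers (0.13, adjusted p = 0.014).

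Window 3 against window 2 called 0 of 8 genes, against 12.4% of all tested probe sets, 6.37% higher and 6.01% lower. OLE1 came nearest, with means of 13.13 and 13.20, a difference of -0.072 (95% interval -0.12 to -0.020, adjusted p = 0.057), and it was lower at 9 of 11 positions. ACC1 differed by -0.040 (adjusted p = 0.14). An unadjusted p under 0.05 was found for these 2 of the 8, and for 1528 of all 5372 tested probe sets. As deposited, the median of all tested probe sets was 0.19 higher in window 3, and 5 of the 8 genes were called higher. They rose by 0.19 to 0.25, which is close to that shift. Of all tested probe sets 37.2% were called there, 1991 of 2001 of them higher.

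ACB1 fell after phenelzine. Over windows 1 to 3 its mean was 13.06 against 13.19 in the control window, a difference of -0.12 (95% interval -0.17 to -0.072, SE 0.02, adjusted p = 0.00076), or 0.919-fold, and it was lower at 10 of 11 positions. It was 1 of 8 genes called, against 16% of all tested probe sets, 7.52% higher and 8.45% lower. The size was -0.088 with median centring and -0.15 as deposited, where neither passed (adjusted p = 0.65 and 0.15). Nor did the fit without the position block pass (adjusted p = 0.17). Among arrays before the gap in array numbers it was -0.11 (adjusted p = 0.0062). After quantile normalization the other 7 differences ran from -0.067 for FAA4 to 0.059 for FAA1. There the synthase genes stayed within 0.03 of 0 over their whole 95% intervals.

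**Figure D3:**
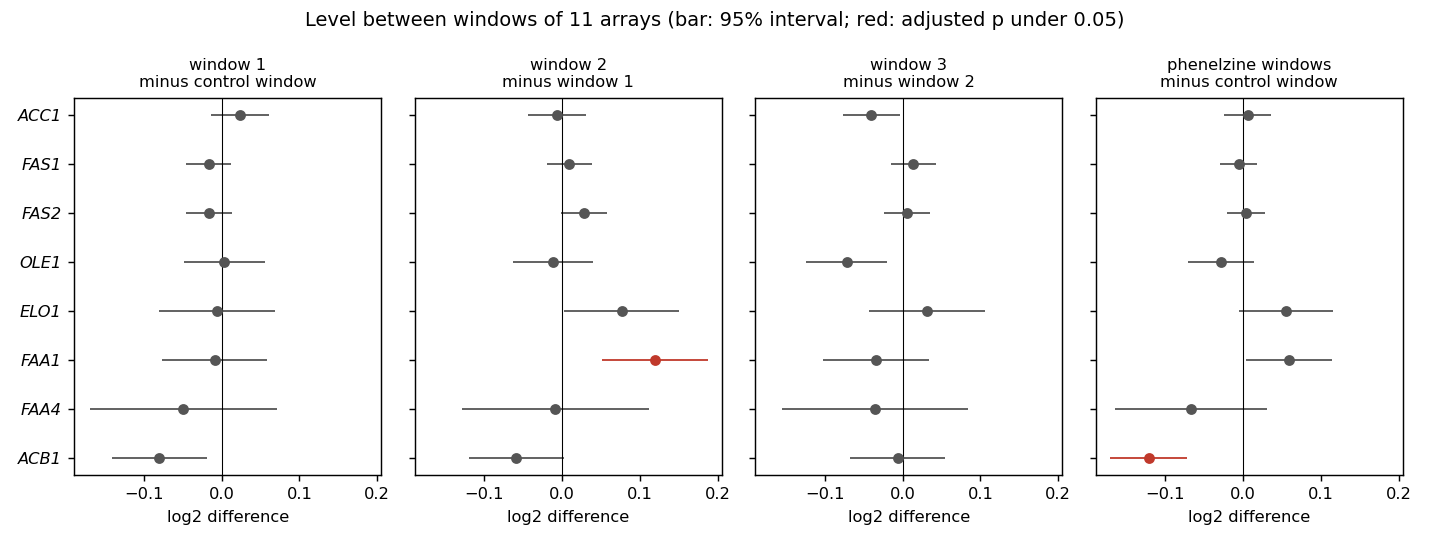
Difference in mean log2 signal between windows of 11 arrays (horizontal axis) for the 8 genes, after quantile normalization and with position in the cycle as a block. Bars are 95% intervals, and red marks an adjusted p under 0.05. FAA1 in window 2 over window 1 and ACB1 after phenelzine are the 2 marked differences.

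Over the 37 phenelzine arrays, with the 48-min rhythm in the fit, 3 of the 8 genes had a linear trend that passed, against 39.8% of all tested probe sets, 20.6% with a rise and 19.2% with a fall. ELO1 rose by 0.074 per hour (SE 0.02, adjusted p = 0.0074) and FAA1 by 0.059 (SE 0.02, adjusted p = 0.043). OLE1 fell by 0.044 per hour (SE 0.02, adjusted p = 0.047). As deposited, tested probe sets drifted up by a median of 0.11 per hour. ELO1 at 0.22 and FAA1 at 0.21 stood above it. OLE1 rose by 0.11 there, so its direction reversed. All 8 were called as deposited, against 42.4% of all tested probe sets. With median centring 1 of the 8 was called, against 31.8%, and with a 52-min period 1 was, against 38.4%. None of the 8 was called among the arrays before the gap in array numbers, against 7%.

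No component at double the period was called. A 96-min rhythm, fitted beside the 48-min rhythm, was called for 0 of the 8 genes and for 0% of all tested probe sets by limma, where 291 had an unadjusted p under 0.05. Amplitudes ran from 0.014 for FAS1 to 0.042 for ELO1. The smallest unadjusted p among the 8 was 0.16, for ACC1.

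The genes most like each member were picked by Pearson's r over the 48 arrays among all tested probe sets, as a description. For FAS1 they were POX1 (r = 0.91), the acyl-CoA oxidase of peroxisomal fatty acid breakdown, CTA1 (0.90), the peroxisomal catalase, and IDP3 (0.89), a peroxisomal isocitrate dehydrogenase. As deposited these values were -0.21, -0.27 and -0.26, so this likeness appeared only after normalization. For FAS2 they were AGX1 (0.93), an alanine-glyoxylate aminotransferase, SDS24 and PRE4, and of these AGX1 kept its likeness as deposited (0.91). The genes nearest to ACC1, led by YHR054C (0.74), and to OLE1, led by YLR152C (0.80), also lost it as deposited (-0.65 and 0.39).

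The likenesses of ELO1, FAA1 and FAA4 held after quantile normalization and as deposited, and were not computed with median centring. ELO1 ran with PYK2, a pyruvate kinase isoform (r = 0.90, and 0.92 as deposited), YSP3 (0.88) and ADH5, an alcohol dehydrogenase (0.88). FAA1 ran with YIG1 (0.91, and 0.90 as deposited), PEX28, a peroxisomal membrane protein (0.91), and CLD1, a cardiolipin phospholipase (0.90). FAA4 ran with genes of amino acid synthesis. These were ILV5 of the branched-chain pathway (0.93, and 0.80 as deposited), CPA1 of arginine synthesis (0.88) and BAT1, a branched-chain aminotransferase (0.88). ACB1 was nearest to BCH1 (0.85), LIP1, a ceramide synthase subunit (0.81), and KNH1 (0.80), with 0.13 to 0.22 as deposited.

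Around these 8 genes, 45 genes in 8 pathway lists were read in the same fits, and 38 of 45 (84.4%) had a recurring pattern, near the 86.3% of all tested probe sets. The counts per list below are read against that same 86.3% and show nothing particular to a list. The widest swings were those of ACS1, an acetyl-CoA synthetase (2.37), INO2, a regulator (1.92), and IDP2, a cytosolic NADPH-making isocitrate dehydrogenase (1.504). The median swing after quantile normalization was 0.36 in the acetyl-CoA and biotin list and 0.27 in the NADPH list. Both lay below the 0.53 of all tested probe sets, an order that median centring did not keep. There the middle gene of the acetyl-CoA and biotin list, ACS2, swung by 0.81, against 0.61 over all tested probe sets. Of the acetyl-CoA and biotin list 5 of 5 recurred, and of the NADPH list 4 of 6. CYB5, the cytochrome that passes electrons to the desaturase, swung by 1.16.

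Elongases differed in timing. ELO2 and ELO3, which make very long chains, swung by 0.87 and 1.02 and were highest 32 and 28 min after the start of a window, where ELO1 was highest at 40 min. Of the elongation list 4 of 5 genes recurred, against 86.3% of all tested probe sets. In the 48-min fit after phenelzine the peroxisomal synthetase FAA2 peaked at 5.3 min and FAA1 at 3.0 min, while FAA3 peaked at 34.9 min and FAA4 at 35.8 min. All 3 genes of the list of other acyl-CoA synthetases and uptake recurred, against that same 86.3%.

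Of the regulators 7 of 9 recurred, against 86.3% of all tested probe sets, the share for each count in this paragraph. INO2 peaked at 35.1 min of the 48-min fit, and INO4, which encodes its partner, swung by 0.78. In the mitochondrial fatty acid synthesis list 7 of 8 recurred, led by CEM1, its condensing enzyme, at 1.01 and PPT2 at 0.84. Of the genes that transfer acyl chains to glycerol 6 of 7 recurred, led by GPT2 (0.86), DGA1 (0.81) and PAH1 (0.69). Both genes of the desaturase electron list recurred.

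**Figure D4:**
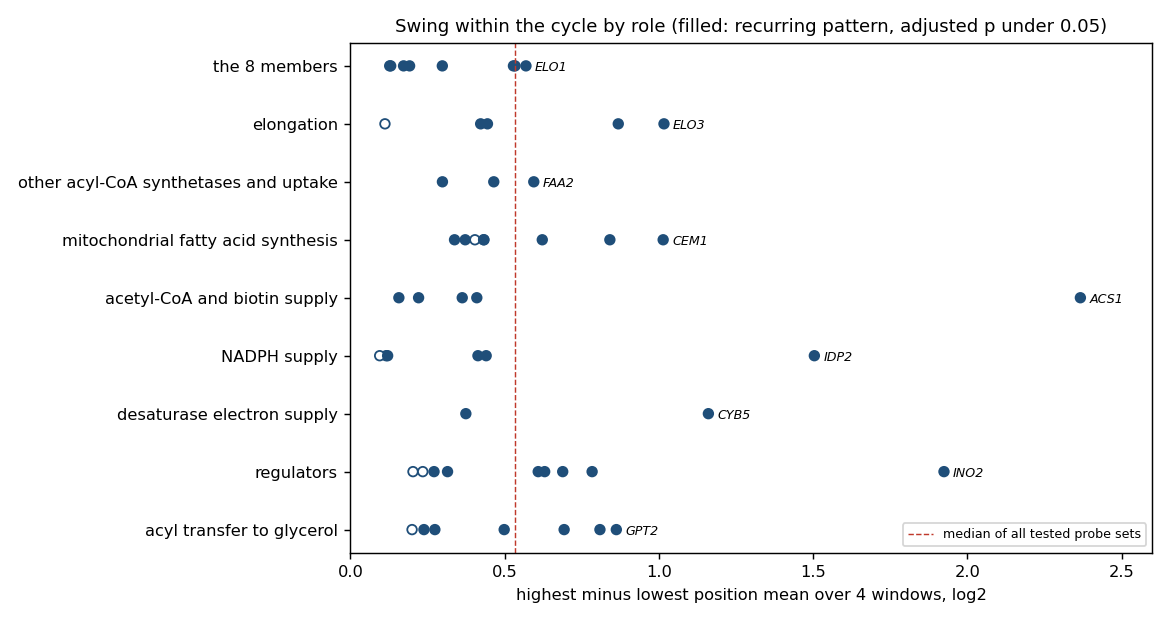
Swing within the cycle after quantile normalization, for the 8 genes and the 45 genes of 8 pathway lists (rows). It is the highest minus the lowest position mean over 4 windows on the log2 scale (horizontal axis). Filled points have a recurring pattern at an adjusted p under 0.05, the gene of widest swing in each row is named, and the dashed line is the median of all tested probe sets, 0.53. ACS1, INO2 and IDP2 lie farthest to the right.

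In the comparison of phenelzine windows with the control window, 17 of the 45 pathway genes were called, 3 higher and 14 lower, where 7.52% of all tested probe sets were higher and 8.45% lower. ACS1 fell by 0.43 (adjusted p = 1.3e-06) and IDP2 fell by 0.34 (adjusted p = 1.0e-05). CEM1 rose by 0.34 (adjusted p = 0.00060) and FAA2 by 0.15 (adjusted p = 0.015), while FAA3 fell by 0.11 (adjusted p = 0.020). INO2 at -0.25 did not pass (adjusted p = 0.074). With median centring 9 of the 45 were called, 2 higher and 7 lower, where 10.4% of all tested probe sets were called. As deposited 2 of the 45 were, ACS1 and IDP2, both lower, where 1.92% were.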

How the data were processed

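The deposited values are linear signal intensities that the authors made in GCOS (no version), per the submitters' processing notes. How signals were computed and scaled is not stated in the labels, so column scale and centring stay unknown (column medians ran from 32.4 to 86.8). Precision is limited by the 48 arrays. Genes were named through the platform annotation. Signals under 1 were set to 1, log2 transformed and quantile normalized. Probe sets were tested where their mean exceeded the 90th percentile of fission yeast probe sets on the array (log2 3.01), which left out 126 of 5498. Models were fitted in R 4.3.3 with limma 3.58.1, using lmFit and eBayes with a trend and Benjamini-Hochberg adjustment. Window fits had window and position as terms, and rhythm fits cosine and sine terms. P-values measure spread between time points of 1 culture. Fits were tested on simulated data.

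The 8 genes, pathway lists, periods and windows were chosen with earlier results of these data known. Named besides the 8 were the 3 genes with the highest r to each and, of each list, at most 3 with the widest recurring swing and at most 3 called in a level comparison. Peaks are maxima of the 3-point running mean, highest within 12 min on each side. Alternatives were scaling, pseudocount, dim filter, 7 arrays with name suffix 2, arrays before the missing number, lags, periods, the position block and, added after the data were seen, each array left out and other lags for the test of amplitude and phase. Promoter motifs were planned and not analysed here. Figures used matplotlib 3.10.9.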

Additional observations from a re-analysis of the deposited data

Results flagged for a closer look

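After quantile normalization the fitted amplitude or phase of FAA4 differed between windows by the test of the difference itself. That test is the interaction of window with the 48-min cosine and sine terms (limma, adjusted p = 0.0266). The fitted peak was at 40.3 min in the control window and at 28.4 min in window 3, with amplitudes of 0.19 and 0.28. The call held with 41 of 44 arrays left out in turn. It was lost without the array at -44 min, at -40 min or in the second place of window 3, where the highest adjusted p was 0.056. The call was also lost with median centring, as deposited, among arrays before the gap in array numbers and with windows spaced by 44 min throughout. FAA4 troughs were 44, 44 and 48 min apart, while the windows follow each other by 44, 48 and 52 min.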

How the results depend on the processing

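Over all alternatives, 656 values of single genes were recomputed: 588 kept direction and side of the threshold, 49 lost a call, 13 gained one and 6 reversed. Percentages in brackets give the share of all tested probe sets called in the same setting. Of the 8 genes, the recurring pattern called 4 with median centring (82.7%) and 4 as deposited (77.9%). The control rhythm called 3 as deposited (54.2%). The phenelzine rhythm called 5 with median centring (85.6%) and 4 as deposited (79.6%). As deposited, window 1 against control called 1, ACB1 at -0.23 (4.43%). Window 2 against window 1 called 0 there (1.04%) and window 3 against window 2 called 5 (37.2%). Window 2 against window 1 called 2 with median centring (13.2%). It called 0 with lags of 44 min (0.614%), lags of 48 min (3%) or no position block (0.13%). Phenelzine against control called 0 with median centring (10.4%), as deposited (1.92%), without the position block (0.838%) and with all 37 against all 11 arrays (0.465%). The trend called 1 with median centring (31.8%), 8 as deposited (42.4%), 0 before the missing array number (7%) and 1 with a 52-min period (38.4%). The test of amplitude and phase called 0 with median centring (9.27%), as deposited (5.21%) and before the missing number (11.2%). It called 3 with lags of 44 min (68.9%), added after the data were seen. Reversed as deposited, where the medians of all probe sets moved by 0.19 and 0.11, were window 3 against window 2 for FAA4 (0.20) and ACB1 (0.19) and the trend of ACC1 (0.18), OLE1 (0.11), FAA4 (0.14) and ACB1 (0.11). The cause was not tested.

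With each array left out in turn, counts of the 8 stayed at 1 for window 2 against window 1 and for phenelzine against control, with adjusted p of 0.0087 to 0.040 for FAA1 and 0.00027 to 0.0040 for ACB1. For amplitude and phase they ran from 0 to 1, with 0 without the array at -44 min, at -40 min or in the second place of window 3. No paired analysis was possible because the labels give each array a time and no replicate number. Position in the window was the block instead.

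Counts over all probe sets moved too. Without the position block, 320, 837, 665 and 858 calls in the 4 level comparisons became 1, 7, 29 and 45, since the cycle then enters the error. As deposited the first 3 became 238, 56 and 2001 and the last, 16% of probe sets, became 1.92%, and with median centring 157, 711, 418 and 557. Of the calls in these comparisons 154, 436, 342 and 404 were higher, and as deposited 2, 49, 1991 and 34. With median centring 147 of the 418 were higher. The trend had 1107 higher of 2138, and 2229 of 2279 as deposited. With lags of 44 min the counts became 7, 33, 203 and 373, and with 48 min 37, 161, 213 and 520. With all 37 arrays phenelzine against control gave 25, and before the missing number 383. Window 3 against window 2 gave 164 without name suffix 2. The trend, 2138, gave 376 before the missing number and 1124 with 44 min. Amplitude and phase, 859, gave 498 with median centring, 280 as deposited, 511 with 44-min terms, and 3700 and 2457 with lags of 44 and 48 min. The double period called 0 or, without name suffix 2, 1. Probe sets of the brightest 5%, ACC1, FAS1, FAS2 and OLE1 among them, swung by a median of 0.21 after quantile normalization and 0.85 with median centring, so the scaling limits what can be said of their size.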
